A study of Mus musculus with 2 samples.

Results

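AMP-activated protein kinase (AMPK) is the energy sensor of the cell, a complex of a catalytic alpha, a scaffolding beta and a nucleotide-binding gamma subunit. The genes examined here were those of the 7 AMPK subunits and of 2 kinases that switch AMPK on, 9 genes among the 55536 Ensembl genes listed. They were chosen by gene symbol, and all 9 were found. The alpha subunits are encoded by Prkaa1 and Prkaa2, the beta subunits by Prkab1 and Prkab2, and the gamma subunits by Prkag1, Prkag2 and Prkag3. Stk11 encodes LKB1, the main activating kinase of AMPK in muscle, and Camkk2 encodes the calcium-dependent activating kinase CaMKK2.

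Binding of AMP or ADP to the gamma subunit favours phosphorylation of a threonine in the activation loop of the alpha subunit and protects it from removal. The active enzyme promotes glucose uptake and fat oxidation and slows synthesis of glycogen, fat and protein. In skeletal muscle it is engaged by contraction, and the gamma 3 subunit is known for its near restriction to fast glycolytic muscle.

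The tissue was whole gastrocnemius, a mostly fast calf muscle, from male B6CASTF1/J mice aged 36 days and supplied by The Jackson Laboratory. B6CASTF1/J is an F1 cross, no treatment is named, and reads of the parental alleles were counted together. Total RNA libraries were made from 300 ng, depleted of ribosomal RNA, stranded, and spiked with ERCC RNAs. The 2 libraries form 1 group, mouse 03 being replicate 1 and mouse 04 replicate 2. Both animals carry the same donor entry, so the spread between them is that of samples the labels call biological replicates. A single group of 2 gives no contrast and no p-value, and levels are given for each animal or as mean ± SD (n = 2).

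Replicate 1 held 36952277 expected counts and replicate 2 held 38754338, where an expected count is the estimated number of reads of a gene. Levels are in TPM, a relative transcript abundance that divides by length and so allows genes to be compared. Summed TPM of 6 muscle fibre markers was 92565 and 97898 in replicates 1 and 2. Schwann cell markers summed to 471 and 108 TPM, and fibroblast markers to 1388 and 698 TPM, both lower in replicate 2. Satellite cell markers stood at 8.92 and 9.10 TPM and endothelial markers at 46.8 and 47.2 TPM. In bulk tissue, fewer cells of a type and less RNA per cell cannot be told apart, and the part of these cell types in the values below was not tested.

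The catalytic alpha subunits share the activation loop that LKB1 phosphorylates, and it is shown here because the upstream kinases and both alpha genes meet at this site. The stretches below are 60 coding bases of Prkaa1-201 and Prkaa2-201, read 5′ to 3′ from the GENCODE M21 transcripts. Capitals mark bases that differ between the genes, and bases 31 to 33 are the threonine codon, number 183 in Prkaa1-201 and 172 in Prkaa2-201.
Prkaa1: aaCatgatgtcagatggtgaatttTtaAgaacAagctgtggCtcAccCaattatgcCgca
Prkaa2: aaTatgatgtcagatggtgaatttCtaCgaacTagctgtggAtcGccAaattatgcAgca
The pair differed at 8 bases in 8 of 20 codons, and at 0 of the encoded residues, so every difference in this stretch was silent. Over the aligned coding sequences 71.2% of bases were identical. The longest exact stretch that these alpha transcripts shared was 35 bases, shorter than the 100-base reads, so a full read from them could be assigned to either gene. The read length was inferred from the deposited lengths and effective lengths.

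Alpha subunit RNA was mostly Prkaa2, the alpha 2 gene that predominates in skeletal muscle. Prkaa2 (chromosome 4, 105029874-105109890, minus strand, mm10) stood at 41.2 TPM and 51.5 TPM in replicates 1 and 2, with a mean of 46.3 ± 7.30 TPM (SD, n = 2). These levels rested on 10228 and 12840 expected counts. Prkaa1, the more widely expressed alpha 1 gene (chromosome 15, 5143861-5181899, plus strand), stood at 3.65 TPM in both animals, from 521 and 525 expected counts. Prkaa2 thus made up 91.9% and 93.4% of alpha TPM, a mean share of 92.6% ± 1.08. On the log2 scale Prkaa2 exceeded Prkaa1 by 3.66 ± 0.23 in TPM. In a second transcript table, quantified separately by the authors, the mean share was 92.5%.

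The beta subunits, which hold the complex together and bind glycogen, were split more unevenly still. Prkab2 (chromosome 3, 97658193-97673812, plus strand), the beta 2 gene of muscle, stood at 60.9 TPM in replicate 1 and 80.3 TPM in replicate 2. Prkab1 (chromosome 5, 116013586-116024508, minus strand), the beta 1 gene, stood at 3.61 and 3.84 TPM. The ranges did not overlap, and Prkab2 exceeded Prkab1 by 4.23 ± 0.22 on the log2 scale. The share of Prkab2 in beta TPM was 94.4% and 95.4%, a mean of 94.9% ± 0.733. Prkab2 was the highest of the 9 genes, above 94.0% of the 10343 nuclear protein-coding genes with a mean TPM of at least 1.

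Among the gamma subunits, which bind AMP, ADP and ATP, no single gene held as large a share as Prkaa2 or Prkab2 did. Prkag3 (chromosome 1, 74738922-74749221, minus strand), the gamma 3 gene, stood at 41.3 TPM in replicate 1 and 36.6 TPM in replicate 2. Prkag1 (chromosome 15, 98812797-98831521, minus strand), the broadly expressed gamma 1 gene, stood at 14.6 and 15.9 TPM. Prkag2 (chromosome 5, 24862744-25100642, minus strand), the gamma 2 gene known for mutations that cause glycogen-storage heart disease, stood at 5.65 and 6.02 TPM. Their ranges did not overlap, and the order Prkag3, Prkag1, Prkag2 held in both animals. Prkag3 made up 67.1% and 62.5% of gamma TPM (64.8% ± 3.29), Prkag1 made up 23.7% and 27.2% (25.4% ± 2.51), and Prkag2 made up 9.18% and 10.3% (9.73% ± 0.775). The order was the same in the second transcript table, where Prkag3 took 66.8% ± 2.06.

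**Figure D1:**
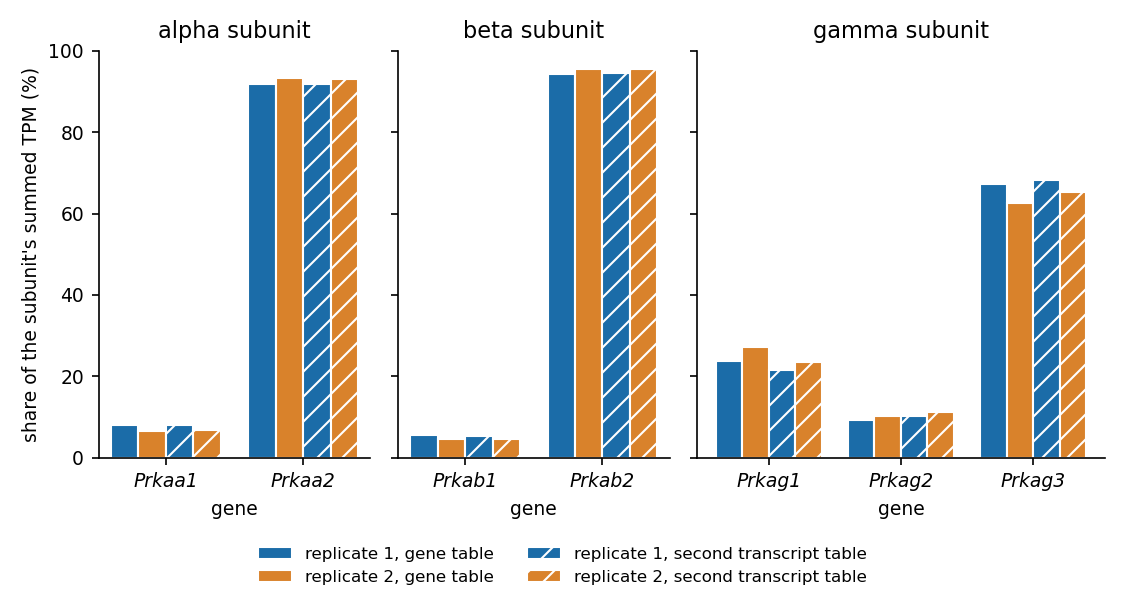
Share of each paralog in the summed TPM of its subunit, in percent, for each animal (colours) in the gene table (plain bars) and in the second transcript table (hatched bars). Prkaa2 and Prkab2 take over 90% of their subunits in all 4 columns, while Prkag3 takes between 62.5% and 68.2% of gamma.

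The share of Prkag3 depends on which transcripts are counted as coding. Prkag3-204, annotated as a target of nonsense-mediated decay, and Prkag3-206, annotated as protein-coding, have the same 2832-base sequence. Reads cannot separate them, and each was given 19.43 and 17.23 TPM in replicates 1 and 2. Together they carried 94.1% of Prkag3 TPM in the first transcript table and 65.1% in the second. Counting protein-coding transcripts alone drops a copy of the pair together with the other decay targets. It lowers the gamma share of Prkag3 to 49.8% in the first table and 48.8% in the second. Much of the rest of Prkag3 in the second table lay in Prkag3-203, a 517-base decay target with 23.6 and 26.7 TPM there but 1.49 and 1.35 TPM in the first table. The lower share in the second table thus reflects the loss of Prkag3-203 as well as of the copy.

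Summed over paralogs, alpha RNA stood at 44.8 and 55.1 TPM, gamma RNA at 61.5 and 58.6 TPM, and beta RNA at 64.5 and 84.2 TPM in replicates 1 and 2. With all transcripts counted, their ranges did not overlap in the gene table, with beta highest and alpha lowest. The ratio of beta to alpha was 1.48 ± 0.0619, and that of gamma to alpha was 1.22 ± 0.220. In the second table gamma summed to 120.8 and 114.3 TPM and beta to 96.3 and 121.1 TPM, and these ranges overlapped. Over protein-coding transcripts alone, which drop one copy of the identical Prkag3 pair, gamma was lowest in both animals and both tables. It then summed to 39.0 and 38.1 TPM against 44.8 and 55.1 TPM for alpha in the first table, and to 58.8 and 54.8 TPM against 62.8 and 71.9 TPM in the second. The dropped copy held 19.43 and 17.23 TPM in the first table and 28.3 and 22.9 TPM in the second. With that copy added back, gamma was not below alpha in either animal or table. The same filter also dropped the decay target Prkag3-203, with 23.6 and 26.7 TPM in the second table and 1.49 and 1.35 TPM in the first. The order of the subunit sums thus depended on the table and on the transcripts counted, and beta was above alpha in each of these TPM sums. In expected counts, which leave length uncorrected, alpha was above beta, at 10749 and 13365 against 9598 and 12681 in replicates 1 and 2.

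Of the activating kinases, Stk11 was high and Camkk2 low. Stk11 (chromosome 10, 80115803-80130682, plus strand) stood at 46.8 TPM in replicate 1 and 48.7 TPM in replicate 2 (47.8 ± 1.37 TPM), from 2504 and 2634 expected counts. Camkk2 (chromosome 5, 122731170-122779409, minus strand) stood at 2.07 and 2.06 TPM. Stk11 exceeded Camkk2 by 4.53 ± 0.05 on the log2 scale of TPM, and by 4.04 ± 0.37 in the second table. LKB1 RNA was thus the larger in both animals and both tables, by 13.7-fold to 23.7-fold in TPM.

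Placed in order of mean TPM, Prkab2 came first, followed by Stk11, Prkaa2 and Prkag3, then Prkag1, Prkag2, Prkab1, Prkaa1 and Camkk2. The ranges of Stk11 and Prkaa2 overlapped, as did those of Prkaa2 and Prkag3, and of Prkab1 and Prkaa1. All other neighbours in this order were apart. Stk11, Prkaa2 and Prkag3 stood above 91.2%, 90.9% and 89.2% of expressed nuclear protein-coding genes, and Prkag1 above 73.3%. Prkag2, Prkab1 and Prkaa1 stood above 45.9%, 32.3% and 31.6%, and Camkk2 above 16.0%. In the second table Prkag3 moved ahead of Stk11 and Prkaa2, at 82.4 and 74.6 TPM against 67.5 and 64.5 TPM for Stk11 and 57.7 and 67.0 TPM for Prkaa2. Levels in that table were higher for most genes, with a median ratio to the gene table of 1.46 over all 11349 genes with a mean TPM of at least 1. The same ratio was 2.16 for Prkag2, 2.02 for Prkag3 and 1.97 for Camkk2, so the levels of these genes moved most between the tables.

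**Figure D2:**
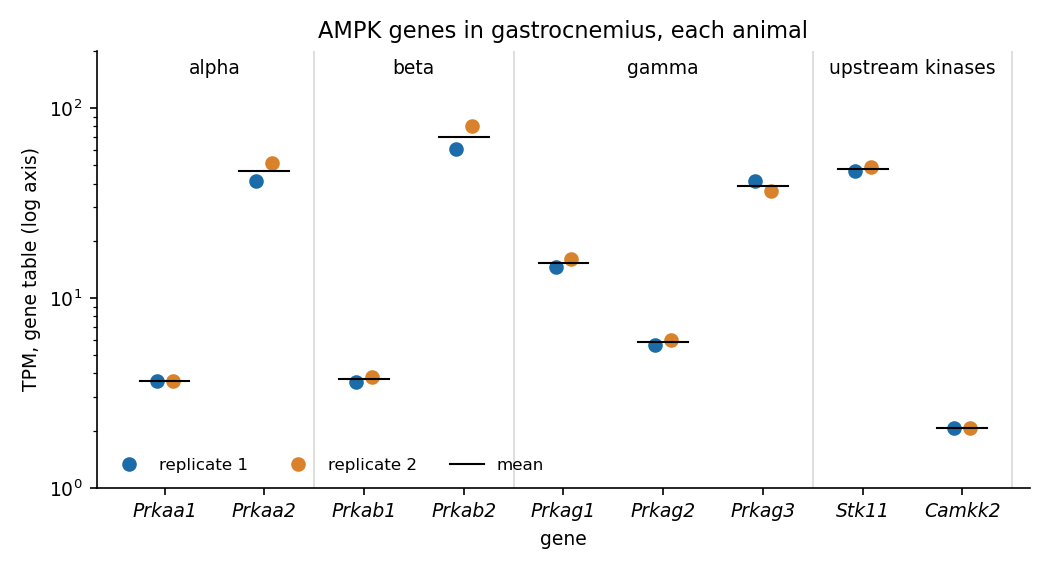
TPM of each gene in the gene table on a log axis, with a point for each animal and a line at the mean of both. Prkaa2, Prkab2, Prkag3 and Stk11 lie between 36.6 and 80.3 TPM, and Prkaa1, Prkab1 and Camkk2 between 2.06 and 3.84 TPM.

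Stk11 RNA carried alternative ends of the reading frame. LKB1 is known as a long form and as a shorter form that is abundant in testis, and these differ in the last coding exon. The sequences below show where the transcripts part. Each gives 30 bases of the shared exon (chr10:80127904-80128100, plus strand) in lower case and the first 30 bases of the next exon in capitals, from GENCODE M21 on mm10. The next exon is chr10:80129905-80130111 in Stk11-201, which encodes 436 residues, and chr10:80128391-80128512 in Stk11-210, which encodes 412.
Stk11-201: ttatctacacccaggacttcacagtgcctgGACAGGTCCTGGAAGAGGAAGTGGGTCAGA
Stk11-210: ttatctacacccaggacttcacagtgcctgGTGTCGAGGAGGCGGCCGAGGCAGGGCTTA
Stk11-210, the protein-coding transcript with the short end, stood at 13.1 and 12.2 TPM in replicates 1 and 2, and protein-coding transcripts with the long end at 31.3 and 34.5 TPM. The short end was 29.5% and 26.1% of these ends together (27.8% ± 2.37). In the second table it was 24.7% and 23.9% (24.3% ± 0.561). The values of the second table lay below those of the first.

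Division of the long end among transcripts was not settled. Stk11-202 starts within the gene at position 80125375 and encodes 310 residues. It had 13.9 and 17.4 TPM in the first table but 0.413 and 5.002 TPM in the second. Stk11-201 had 16.7 and 17.1 TPM in the first table and 34.3 and 31.3 TPM in the second. The shortened kinase predicted from Stk11-202 was therefore given a large part of Stk11 by one quantification only. The annotated end of Stk11 overlaps the opposite-strand gene Cbarp by 232 bases. Cbarp had 49 and 41 expected counts, few beside the counts of Stk11, and the sources used here do not say whether counting used strand.

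Prkag2 is known for gamma 2 forms of different length made from separate starts. The windows below are the 100 bases before each of 3 annotated starts, taken from RefSeq on GRCm38.p6 and read 5′ to 3′ on the minus strand, with every CG in capitals. They are shown because the starts differed in use and in base composition.
Outermost start (chr5:25100643-25100742): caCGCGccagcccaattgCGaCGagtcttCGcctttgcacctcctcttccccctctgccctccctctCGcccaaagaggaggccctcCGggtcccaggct
Middle start (chr5:24995754-24995853): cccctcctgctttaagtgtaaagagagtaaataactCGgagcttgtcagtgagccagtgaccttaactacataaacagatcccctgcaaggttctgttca
Inner start (chr5:24908510-24908609): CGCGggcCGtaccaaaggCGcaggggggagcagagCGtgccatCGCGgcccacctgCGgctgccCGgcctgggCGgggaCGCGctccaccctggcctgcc
In the 250 bases before the start, CG, which reads the same on both strands, occurred 23 times at the outermost start, 4 times at the middle start and 34 times at the inner start. Of 32851 such windows in RefSeq, 92.1% held at least 1 CG and the median number was 6. The inner window had more than 96.5% of them, the outermost more than 86.7% and the middle more than 37.8%.

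Transcripts starting within 600 bases of the inner start held most of the Prkag2 signal assigned to these starts. Among them Prkag2-203, which encodes 326 residues, had 2.69 and 2.97 TPM in the first table and 1.99 and 2.33 TPM in the second. The inner transcripts summed to 3.77 TPM in both animals in the first table and to 5.62 and 3.88 TPM in the second. Prkag2-201, from the outermost start, encodes 566 residues and stood at 0.89 and 0.64 TPM in the first table, and at 1.61 and 1.18 TPM in the second. Prkag2-202, from the middle start, encodes 443 residues and stood at 0.17 and 0.13 TPM, and at 0.705 and 0.360 TPM in the second table. The order inner, outermost, middle was seen in both animals and both tables. As a share of Prkag2 TPM, the inner start took 64.7% ± 2.90 in the first table but 37.9% ± 10.9 in the second. The difference between the tables lay in transcripts with other starts, 19.5% in the first table and 46.8% in the second, largely the retained-intron transcript Prkag2-207 of 651 bases (0.73 and 1.48 TPM in the first table, 3.98 and 5.30 TPM in the second).

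**Figure D3:**
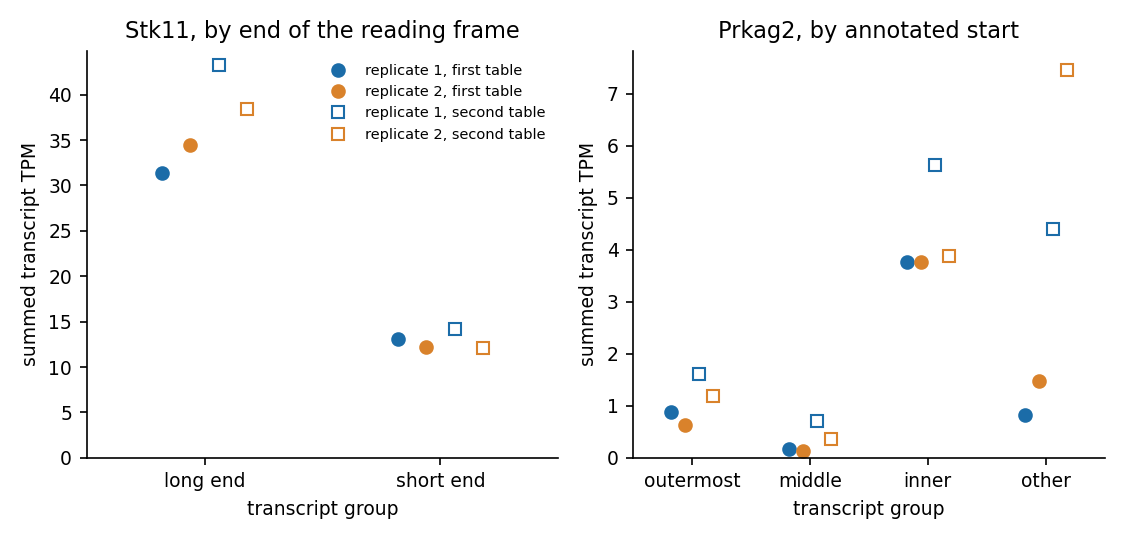
Summed transcript TPM of Stk11 by the end of the reading frame (protein-coding transcripts, left) and of Prkag2 by annotated start (right). Points are animals (colours) in the first (filled) and second (open) transcript table. The short Stk11 end lies between 12.1 and 14.2 TPM in all 4, and the inner Prkag2 start is above the outermost and middle starts in all 4.

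Forms of the remaining genes were simple or were not settled by these data. Prkaa2 has a single annotated transcript of 7969 bases that encodes 552 residues. Prkaa1-201 and Prkaa1-202 encode 559 and 550 residues and differ at the start. Their TPM was 0.41 and 3.24 in replicate 1 and 1.62 and 2.03 in replicate 2, and the second transcript quantification gave 1.06 and 4.08 in replicate 1 and 2.96 and 2.00 in replicate 2. Prkaa1-202 was thus the higher in 3 of these 4 comparisons, which leaves the choice of the alpha 1 start unresolved. Prkab1-201 and Prkab1-202 encode the same 270 residues, and the tables disagreed on which was higher. The first gave Prkab1-202 1.66 and 1.89 TPM against 1.03 and 1.32 TPM for Prkab1-201, and the second gave Prkab1-201 3.73 and 4.25 TPM against 0.501 and 0 TPM.

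For Prkab2, 99.4% of TPM lay in the coding transcript Prkab2-201 (271 residues) in the first table and 91.4% in the second. There Prkab2-204, a decay target, had 5.82 and 12.4 TPM, against 0 in both animals in the first table. Prkag1-201 (330 residues) was the main gamma 1 form at 12.4 and 14.3 TPM in the first table and 17.6 and 18.0 TPM in the second. Camkk2-201, the full form of 588 residues, had 1.31 and 0.75 TPM in replicates 1 and 2, and 1.90 and 1.08 TPM in the second table. It was the lower in replicate 2 in both tables, on 197 and 113 expected counts in the first. Camkk2-201 held 63.6% and 36.1% of Camkk2 TPM in the first table, and 55.5% and 23.0% in the second. In replicate 2, Camkk2-202 (216 residues) held 33.2% in the first table. In the second, Camkk2-206 (29.5%) and Camkk2-207 (24.3%) were above Camkk2-201 in replicate 2. With a single transcript compared per gene, beta paralogs shared no exact stretch longer than 23 bases and gamma paralogs none longer than 17. Both are shorter than a read, and other transcripts of these genes were not compared.

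The animals were compared gene by gene as log2(TPM + 0.1) in replicate 2 minus replicate 1. To be called different, a gene needed 50 expected counts on average, a TPM difference of at least 2-fold and deposited credibility intervals that did not overlap. Of the 9 genes, 9 had enough counts and 0 met all criteria, against 257 of 11632 genes (2.21%) overall. Of these 257 genes 52 were higher and 205 lower in replicate 2. The median difference of the 9 genes was 0.09, beside 0.01 over the 11349 genes with a mean TPM of at least 1. All 9 lay within the central 95% of those genes, which ran from -0.99 to 0.68. Among markers of other cells, 6 of 7 of Schwann cells, 3 of 6 of tendon cells and 2 of 6 of fibroblasts met the criteria and were lower in replicate 2, and 2 of 6 of adipocytes were higher. None of the muscle fibre, endothelial or satellite cell markers met them.

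The alpha 2 and beta 2 genes of muscle were the furthest from 0 in the gene table. Prkab2 differed by 0.40 and Prkaa2 by 0.32, both higher in replicate 2, and Prkag3 by -0.17. For these 3 genes the credibility intervals of the animals were apart: 58.8 to 61.4 TPM against 77.7 to 80.7 TPM for Prkab2, 39.5 to 41.1 against 49.6 to 51.3 for Prkaa2, and 39.1 to 42.2 against 34.7 to 37.6 for Prkag3. The intervals cover counting and read assignment only, not the spread between animals. Prkab2 and Prkaa2 were higher and Prkag3 lower in replicate 2 under all 5 alternative scalings or tables too. Values ran from 0.33 to 0.41 for Prkab2, from 0.22 to 0.34 for Prkaa2 and from -0.24 to -0.14 for Prkag3. The 5 were not separate checks. A pseudocount of 1 cannot change a sign, and rescaling over nuclear protein-coding genes moves all genes nearly alike. The scalings of expected counts differ from each other by a constant. Prkag1 (0.13) and Prkab1 (0.09) also stayed above 0 under each scaling. Prkag2 (0.09) was at -0.04 with counts scaled by TMM, a change of sign, and Prkaa1 was at 0.00. Stk11 (0.06) was at -0.07 in the second table, where the median of all genes was -0.10. Relative to the median of all genes, a measure on which a scaling common to all genes cancels, Stk11 was at 0.05 in gene TPM. It was at 0.06 in expected counts and 0.03 in the second table. On that measure Prkag3 was at only -0.05 in the second table, beside -0.18 in gene TPM and -0.19 in expected counts.

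Camkk2 had no settled difference between the animals. Its TPM gave -0.01, but its expected counts were 244 in replicate 1 and 158 in replicate 2, a ratio of 1.54. The effective length used for TPM was 3733 bases in replicate 1 and 2419 in replicate 2, as the reads were assigned to different transcripts. With counts scaled by TMM, edgeR's library scaling, the difference was -0.62, and in the second table it was 0.45. There Camkk2-201 fell from 1.90 TPM in replicate 1 to 1.08 TPM in replicate 2, on 220 and 134 estimated counts. Camkk2-206, of 432 bases, rose from 0.591 to 1.39 TPM on 1.925 and 4.69 estimated counts. Camkk2-207, a decay target of 567 bases, rose from 0 to 1.14 TPM on 0 and 7.19 estimated counts. The deposited credibility interval of Camkk2 in replicate 1, 2.26 to 3.91 TPM, did not hold its TPM of 2.07. For Prkaa2 the TPM lay just above the interval in both animals.

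**Figure D4:**
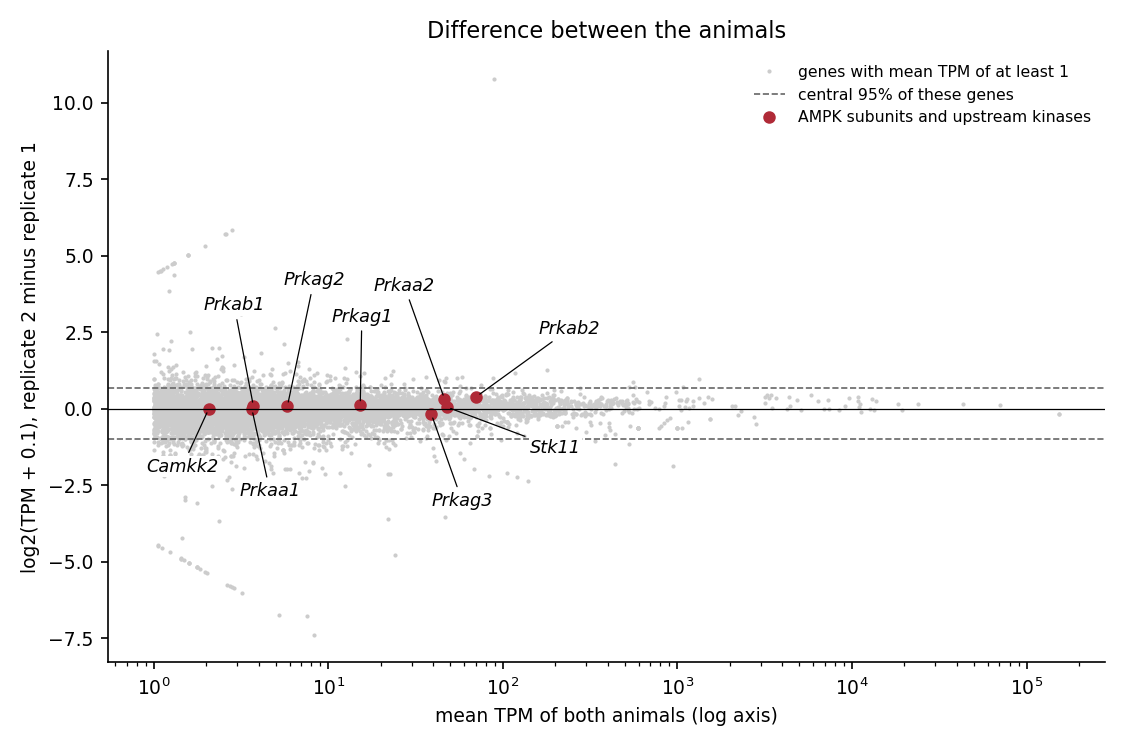
Difference between the animals, log2(TPM + 0.1) in replicate 2 minus replicate 1, against mean TPM on a log axis for the 11349 genes with a mean TPM of at least 1 (grey) and for the 9 AMPK genes (red). Dashed lines at -0.99 and 0.68 bound the central 95% of all genes, and all 9 AMPK genes lie between them.

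Other genes of the pathway were followed as 5 lists with 50 genes, of which 44 had a mean TPM of at least 1. Of the 45 with enough counts, 2 met all criteria, or 4.44% beside 2.21% overall. The lists were not tested against other genes. The LKB1 partners and other upstream kinases had 0 of 5 past the criteria. Cab39, the scaffold MO25 of the LKB1 complex, stood at 50.04 and 62.0 TPM in replicates 1 and 2. Stradb, a pseudokinase partner of LKB1, stood at 50.1 and 54.4 TPM. Both lay near Stk11 itself in level. Map3k7, the kinase TAK1, stood at 13.5 and 13.7 TPM, and Camkk1, the paralog of Camkk2, at 0.38 and 0.47 TPM.

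Of 6 genes of phosphatases that can act on the activation loop, Ppm1a and Ppm1b were the highest. Ppm1a stood at 88.4 and 97.8 TPM and Ppm1b at 60.9 and 65.3 TPM, both above Prkaa2 in each animal. Ppp2ca, a catalytic subunit of PP2A, stood at 14.8 and 15.0 TPM, Ppm1f at 5.37 and 4.77 TPM and Ppm1e at 0.26 and 0.13 TPM. Of this list 0 of 5 met the criteria. Of the lysosomal scaffold and folliculin genes, which bring AMPK and mTORC1 to the lysosome, 0 of 9 did. Lamtor1, the membrane anchor of that scaffold, stood at 38.7 and 40.4 TPM, Lamtor2 at 27.3 and 28.6 TPM, and Lamtor5 at 22.2 and 20.4 TPM. Fnip1, a folliculin partner that binds AMPK, stood at 9.64 and 12.1 TPM, a difference of 0.32, and Fnip2 at 1.14 and 1.24 TPM.

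Among 12 AMPK-related kinases, which LKB1 also activates, 1 of 9 with enough counts met the criteria. Sik1, a salt-inducible kinase, had 17.1 and 6.87 TPM in replicates 1 and 2, a difference of -1.30, and -1.49 in the second table. Snrk (22.4 and 21.9 TPM), Mark3 (21.1 and 20.8 TPM) and Mark2 (13.4 and 13.6 TPM) led the list, and Brsk2, a brain kinase, was lowest at 0.24 and 0.15 TPM. AMPK-related kinases were thus below Prkaa2 at the RNA level in both animals.

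Of 17 substrates of AMPK, 1 met the criteria. Ppargc1a, a coactivator of mitochondrial genes, had 28.6 and 13.0 TPM in replicates 1 and 2, a difference of -1.13, and -0.98 in the second table. Gys1, muscle glycogen synthase, had the highest mean at 82.8 and 111.6 TPM, followed by Pfkfb3, a regulator of glycolysis, at 57.4 and 51.9 TPM and Mff, a mitochondrial fission factor, at 48.4 and 55.2 TPM. Pfkfb2, a relative of Pfkfb3, was lowest at 3.91 and 3.88 TPM. By the gene table, 12 of the 17 substrates were above 0 and 5 below, with a median of 0.18. In the second table, where the median of all genes was -0.10, the list had a median of -0.08, with 9 substrates above that median of all genes and 8 below. With counts scaled by TMM, 12 were above the median of all genes and 5 below, as in the gene table, so the lean of the list was not seen in the second table.

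**Figure D5:**
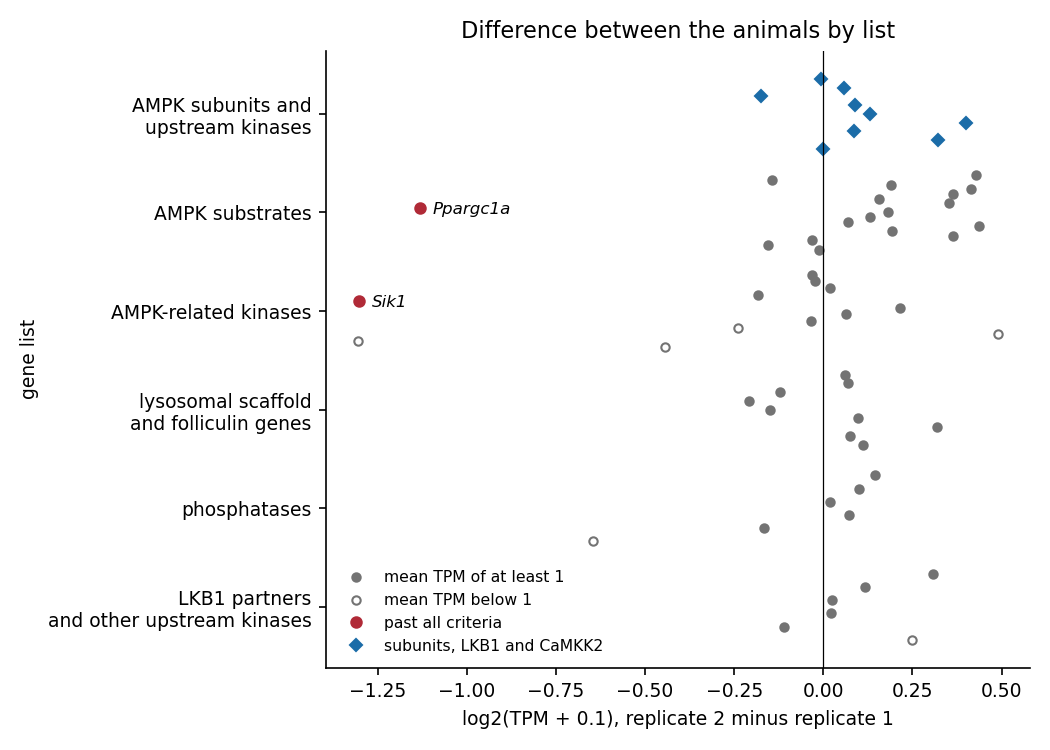
Difference between the animals, log2(TPM + 0.1) in replicate 2 minus replicate 1, for each gene of the 5 pathway lists (circles, open where mean TPM is below 1) and for the 9 AMPK genes (diamonds). The genes past all criteria, Sik1 (-1.30) and Ppargc1a (-1.13), are in red, while the AMPK genes lie between -0.17 and 0.40.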

How the data were processed

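Total RNA-seq of gastrocnemius from 2 mice was used. The authors deposited a gene table and 2 transcript tables per library on mm10 with GENCODE M21, per the notes deposited beside them. The sources used here do not name the aligner, the quantifiers or the use of strand. The deposited expected counts are estimated reads per gene. The authors scaled TPM over 81881 listed features, including tRNA genes and spike-ins. Deposited FPKM values served as an alternative, and the percent of each gene in each transcript was recomputed from the deposited TPM. Bounds of credibility intervals, a deposited signal in TPM, have no stated level. Lengths came from the same deposited tables. The second transcript table holds deposited estimated counts and TPM of a separate quantification.

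Symbols and coordinates came from M21, matched by identifier. Members and gene lists were chosen with earlier results of these data known. One listed gene is not reported here and was left out of its list. All 9 members were named. Of each pathway list the 3 highest by mean TPM, the lowest, the largest absolute difference at a mean TPM of at least 1 and each gene past the criteria were named. Of each member's transcripts, 25 of 61 reached 10% of gene TPM in either table. Criteria were a mean expected count of at least 50, a 2-fold difference on log2(TPM + 0.1), which understates low genes, and intervals apart. They were tested on simulated counts with counting noise only, where genes of high count were changed by more than 2-fold. Without simulated spread between animals, that test gives no rate of false calls for these mice. A count of 0 allows up to 3 reads, 0.0812 and 0.0774 CPM in replicates 1 and 2. This floor and the intervals cover counting error only. A check for 1 library deposited in duplicate gave a chi-square of 35.1 per degree of freedom over 14978 genes, above counting noise. Alternatives were the second table, expected counts, posterior mean TPM, protein-coding or longer transcripts, other filters and scalings, and each animal alone. Python 3.11.15 with pandas 2.3.3, Biopython 1.88 and R 4.3.3 with edgeR 4.0.16 (TMM only) were used. No p-value was computed.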

Additional observations from a re-analysis of the deposited data

How the results depend on the processing

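Subunit shares kept their order within each subunit under every alternative tried, and none reversed. With expected counts in place of TPM, which leaves length uncorrected, the mean shares were 95.6% for Prkaa2, 98.2% for Prkab2, 16.3% for Prkag1, 7.69% for Prkag2 and 76.0% for Prkag3. In the second transcript table Prkag1 had 22.5% and Prkag2 10.7%. With the posterior mean TPM Prkab2 had 93.9% and Prkag2 10.7%. Over protein-coding transcripts of the first and second tables the shares were 95.9% and 95.7% for Prkab2, 38.5% and 37.9% for Prkag1, 11.8% and 13.3% for Prkag2, and 49.8% and 48.8% for Prkag3. The Prkag3 value there loses a copy of a pair of identical transcripts, and also the decay target Prkag3-203, which was large in the second table. Over transcripts of at least 1000 bases in the second table, an alternative chosen after seeing the data, Prkab2 had 96.0%, Prkag2 5.72% and Prkag3 70.5%.

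The 257 genes past the criteria became 125 with a pseudocount of 1, 140 with a mean expected count of at least 200, 394 with no filter on counts and 748 with a fold of 1.5. The 9 AMPK genes gave 0 under each. None of these settings could have called them, because their largest TPM difference, 1.32-fold for Prkab2, was below 1.5-fold. Mean levels moved by more than 1 SD for 9 of 9 genes in the second table and for 4 of 9 with the posterior mean. This SD of 2 animals was 0 TPM for Prkaa1 and 0.007 TPM for Camkk2, so even a small change counted as a move for them. Mean levels also moved for 9 of 9 when rescaled over nuclear protein-coding genes. Those genes held 40.2% and 42.2% of TPM in replicates 1 and 2, so that rescaling raises every level by construction. Of the differences between animals, that of Camkk2 alone moved beyond the spread of all genes, in the second table and with counts scaled by TMM or by the median of ratios. No paired analysis was possible because the series has a single group. The subunit sums changed order over protein-coding transcripts, where gamma was below alpha with a copy of the identical Prkag3 pair dropped. That filter also dropped the decay target Prkag3-203, which was large in the second table. The subunit sums also changed order in expected counts, which leave length uncorrected, where alpha was above beta in both animals. The splits among transcripts of Prkab1 differed between the tables in both animals, and the cause was not tested.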
